A study of Mus musculus with 79 samples.

Results

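The 10 genes described here encode the main steps by which mammalian cells make fatty acids from acetyl-CoA, together with the transcription factor that controls them. Acly splits citrate to give cytosolic acetyl-CoA, Me1 makes NADPH, Acaca and Acacb make malonyl-CoA, Fasn assembles palmitate, Elovl6 and Elovl5 lengthen the chain, Scd1 and Scd2 place the first double bond, and Srebf1 encodes a sterol regulatory element binding protein that activates most of these genes when insulin is high. Liver and fat are the main sites of the pathway, while in muscle the malonyl-CoA made by Acacb at the mitochondrion mainly restrains the import of fatty acids for oxidation. Members were taken from the symbols of the quadriceps table and numbered 10 of 22335 genes, or 12 of 35556 probesets. Acaca and Me1 each had a pair of probesets, and the one with the highest mean over all arrays represents the gene, with the other given beside it.

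Quadriceps RNA of male mice was hybridised to Affymetrix Mouse Gene arrays. The mice were BXD strains, an inbred family made by crossing C57BL/6J with DBA/2J, and both parents. A single array was run per strain and diet, on a pool of about 5 animals. Variation among the animals within a pool is therefore not seen, and p-values concern the spread between strain pools. In the CD group (42 arrays) mice ate a chow diet (Harlan 2018). In the HFD group (37 arrays) they ate a high fat diet (Harlan 06414) from 8 weeks of age. All were 29 weeks old and had fasted overnight, so neither group was measured in the fed state. Both diets were available for 37 strains, and 5 strains had a CD array alone. RNA was extracted, and arrays were run, in 2 sets that are called batches here. Batch 1 held 18 of the CD arrays and 17 of the HFD arrays, and batch 2 held the remaining 24 and 20. Values are the deposited scores, scaled on every array to a mean of 8.0 with an SD of 2.0. They behave like logarithms whose base differs with the spread of the array before scaling, so differences are given in score units and not as folds. Levels of different genes are not comparable on such arrays.

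All arrays had the profile of skeletal muscle. The mean of 12 muscle genes (Acta1, Ckm, Myh4 and others) lay between 13.85 and 14.32 on every array. Fat was present as well, and the mean of 13 adipocyte markers ranged from 8.85 to 10.33 on CD and from 8.95 to 10.43 on HFD. Liver transcripts stood out on 3 arrays, both arrays of BXD51 and the CD array of BXD66, where Alb lay between 11.5 and 11.6 against at most 9.03 on the other 76. No member was at the extreme of its diet group on those 3 arrays, and without BXD51 and BXD66 the same members were called in the diet, Fasn and adipocyte marker comparisons below. The parental comparison was not run without them. Among all arrays the CD array of BXD56 stood apart for the members themselves, which is described next.

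On the CD array of BXD56 most of the lipogenic enzymes were above every other strain, some by a wide margin. Of the 10 members 6 were higher there than on the other 41 CD arrays, namely Acly, Acaca, Fasn, Elovl6, Scd1 and Scd2, where 2.77% of all 35556 probesets were. Fasn stood at 12.70 against 11.13 in the next strain, BXD97, and against a median of 9.55 over the other CD arrays. Elovl6 stood at 11.22 against 9.70 in BXD97 and a median of 8.19. By this gap to the median, Fasn ranked 2nd, Elovl6 3rd and the Acaca probesets 5th and 7th among all probesets. The gap was 3.15 units for Fasn and 3.03 for Elovl6, whereas Srebf1 (0.22), Elovl5 (0.30), Acacb (0.08) and Me1 (0.03) lay within the range of the other strains. Scd2 exceeded the next strain, BXD45, only narrowly, at 10.90 against 10.88.

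Its mean correlation with the other CD arrays was 0.985, within the range of 0.983 to 0.988 over all CD arrays, and 0 of the 12 muscle markers and 0 of the 3 liver markers exceeded the other arrays. Of 13 adipocyte markers 8 were above every other CD array, with a mean over the list of 10.33 against at most 9.81 elsewhere. The gap to the median of the other CD arrays was largest for Pck1 (2.13), Cidea (2.08) and Retn (1.81), while Lep and Slc7a10 each differed by -0.18 units. Of 10 genes that supply the pathway with carbon and NADPH, 6 were also above every other CD array, as were 4 of 17 regulators, 5 of 16 other elongation and desaturation genes and 2 of 9 glycerolipid genes. Among the regulators Thrsp, a lipogenic protein induced by thyroid hormone, lay 1.94 units above the median of the others. On the HFD array of the same strain Fasn was 9.81, Elovl6 7.99 and Acaca 8.75, all below the highest HFD array. That array had the lowest Elovl5 of the HFD group, at 9.098, the other Acaca probeset was 8.003 against a highest HFD value of 8.068, and its adipocyte mean was 10.11. This pool cannot be checked against a second one on the same diet, and the part of adipocyte RNA in its values was not tested. The main diet, covariation and cross-diet results below are therefore also given without BXD56.

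**Figure D1:**
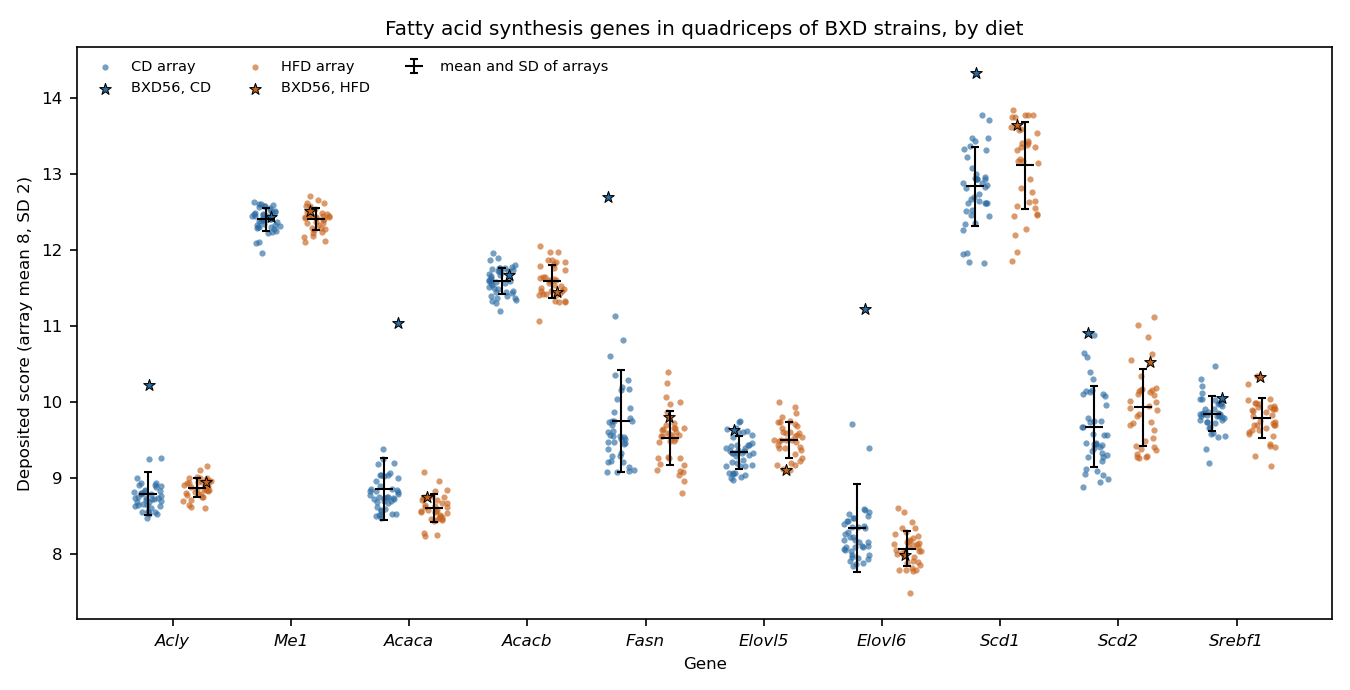
Deposited score of each member (y axis, array mean 8 and SD 2) on 42 CD arrays (blue) and 37 HFD arrays (orange); black bars give the mean and SD of arrays, and stars mark BXD56. The blue star lies above all other CD arrays for 6 members, with Fasn at 12.70, while the orange star lies among the other HFD arrays for these genes.

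Regulatory sequence was read for the members whose diet difference passed the test below (Elovl6, Acaca and Elovl5) and for Fasn, which was added after its values were seen because the covariation of the pathway is described around it. The promoter table used here, from RefSeq (GRCm38.p6), was matched for 8 of the 10 members, and Scd1 and Scd2 were not analysed here. The 250 bases before the listed start follow, 5′ to 3′ on the gene's strand. Capitals mark any match to CACGTG, the E-box read by USF and related factors, to CCAAT, the box read by NF-Y, or to TCACNCCAC, a sterol response element, on either strand. CCAAT on the other strand reads ATTGG, and CACGTG reads the same on both.
Elovl6, chr3:129532136-129532385, plus strand: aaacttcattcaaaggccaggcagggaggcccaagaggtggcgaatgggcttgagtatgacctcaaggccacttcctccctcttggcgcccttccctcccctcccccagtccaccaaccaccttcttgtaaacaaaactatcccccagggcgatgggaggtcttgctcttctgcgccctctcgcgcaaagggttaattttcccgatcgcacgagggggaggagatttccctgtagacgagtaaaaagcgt
Acaca, chr11:84195188-84195437, plus strand: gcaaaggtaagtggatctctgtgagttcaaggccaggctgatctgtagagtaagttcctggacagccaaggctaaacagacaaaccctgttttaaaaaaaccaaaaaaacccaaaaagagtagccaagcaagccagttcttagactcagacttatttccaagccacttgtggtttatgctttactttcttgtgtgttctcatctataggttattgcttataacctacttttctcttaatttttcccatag
Elovl5, chr9:77917115-77917364, plus strand: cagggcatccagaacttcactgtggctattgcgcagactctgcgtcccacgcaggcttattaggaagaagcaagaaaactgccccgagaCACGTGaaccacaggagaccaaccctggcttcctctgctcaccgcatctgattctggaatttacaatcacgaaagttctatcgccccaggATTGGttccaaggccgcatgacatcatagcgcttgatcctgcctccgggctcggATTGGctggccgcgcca
Fasn, chr11:120824548-120824797, minus strand: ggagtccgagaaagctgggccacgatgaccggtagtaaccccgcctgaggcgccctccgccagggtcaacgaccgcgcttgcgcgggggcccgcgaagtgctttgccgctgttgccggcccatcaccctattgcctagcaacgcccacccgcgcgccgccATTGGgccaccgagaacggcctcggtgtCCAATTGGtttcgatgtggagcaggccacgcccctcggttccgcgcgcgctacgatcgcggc
Fasn held CCAAT boxes that began 90, 62 and 59 bases before the start, the last pair overlapping. Elovl5 held CCAAT at 71 and 17 bases and CACGTG at 161 bases. The windows of Elovl6 and of the Acaca start listed here held no match. Whether muscle uses these starts was not checked, so other promoters of these genes are not described. CCAAT was present in 33.85% of the 32851 listed promoters, CACGTG in 6.02% and TCACNCCAC in 1.05%. No listed start of a member held TCACNCCAC, which says only that these letters are not in this window. GC content was 69.2% for Fasn, 56.4% for Elovl6, 55.6% for Elovl5 and 39.2% for the Acaca start listed here.

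The diet comparison asked whether the pathway differed between CD and HFD over strains. Acaca and Elovl6 were lower and Elovl5 was higher on HFD, while the other 7 members did not pass the test. The fit was limma with diet and batch as terms over 79 arrays, and p-values were adjusted over all probesets by Benjamini-Hochberg. So 1 member was called higher, where 18.9% of all probesets were, and 2 were called lower, where 19.3% were. Without BXD56 the calls were 3 higher (Scd1, Elovl5 and Acly, against 19.0% of all probesets) and 2 lower (Acaca and Elovl6, against 19.6%). With each array centred on its median, 2 members were higher (Scd1 and Elovl5, against 23.1% of all probesets) and 2 lower (Acaca and Elovl6, against 16.2%). The median difference over the 10 members was -0.00053, beside -0.00066 over all probesets.

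At the entry of the pathway, Acly lay between 8.47 and 10.22 on CD with a median of 8.74, and between 8.60 and 9.15 on HFD with a median of 8.88. The groups overlapped along most of their range, and only BXD56, BXD97 and BXD101 exceeded 9.15 on CD. The HFD minus CD difference was 0.08 ± 0.05 (SE, adjusted p = 0.211) with all arrays and 0.11 ± 0.04 (adjusted p = 0.00824) without BXD56. Acly was higher on HFD in 28 of 37 strains. Me1, malic enzyme, was nearly flat. It lay between 11.96 and 12.63 on CD and between 12.11 and 12.70 on HFD, with medians of 12.40 and 12.43. Its difference was 0.01 ± 0.03 (adjusted p = 0.924; 0.0029 without BXD56), and the other probeset gave -0.04 ± 0.03 (adjusted p = 0.389).

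The acetyl-CoA carboxylases differed from each other. Acaca, the cytosolic enzyme, lay between 8.48 and 11.04 on CD with a median of 8.77, and between 8.24 and 9.08 on HFD with a median of 8.58. Most arrays of both groups overlapped, with HFD arrays lower on average. Its difference was -0.25 ± 0.07 (adjusted p = 0.00337), and -0.21 ± 0.05 (adjusted p = 0.000214) without BXD56. The other Acaca probeset gave -0.23 ± 0.08 (adjusted p = 0.0173). Acaca was higher on HFD in 6 of 37 strains by the first probeset and in 9 by the second. Probeset numbers follow gene order, and the 10 neighbours of the first Acaca probeset included 0 genes of chromosome 11, where Acaca lies, against 9 of 10 for the second. The placement of the first probeset was not checked further. Over all arrays the probesets had r = 0.87, or 0.70 without BXD56. Acacb, the carboxylase of the mitochondrial surface that predominates in muscle, lay between 11.20 and 11.96 on CD and between 11.06 and 12.05 on HFD, with medians of 11.59 and 11.57. Its difference was -0.01 ± 0.04 (adjusted p = 0.932; -0.00026 without BXD56). Per strain, the Acaca difference lay below that of Acacb by 0.25 units (95% interval -0.392 to -0.115, 37 strains) and was the higher of the pair in 8 of them. That contrast had p = 0.00011 in a two-sided permutation test that flips the sign of each strain's difference, and 0.000165 after adjustment over 3 such pairs. Without BXD56 it was -0.20 (adjusted p = 0.00027). Among the 17 strains of batch 2 it was -0.25 and did not pass (95% interval -0.547 to 0.038, adjusted p = 0.0849), and among the 12 of batch 1 it was -0.24 (adjusted p = 0.0248).

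Fasn, the fatty acid synthase, did not pass the test. It lay between 9.08 and 12.70 on CD with a median of 9.56, and between 8.80 and 10.40 on HFD with a median of 9.56. The medians hardly differed, while at the upper end BXD56, BXD97, BXD101 and BXD70 reached values that no HFD array had. The SD over arrays was 0.67 on CD, 0.48 on CD without BXD56 and 0.35 on HFD, and the difference in spread was not tested. The difference was -0.22 ± 0.12 (adjusted p = 0.141), and -0.16 ± 0.10 (adjusted p = 0.183) without BXD56. Fasn was higher on HFD in 14 of 37 strains.

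The elongases moved apart. Elovl6, which lengthens palmitate to stearate, lay between 7.84 and 11.22 on CD with a median of 8.21, and between 7.49 and 8.61 on HFD with a median of 8.05. The groups overlapped, and the arrays of BXD56, BXD97 and BXD101 on CD lay above all HFD arrays. The difference was -0.27 ± 0.10 (adjusted p = 0.026), and -0.20 ± 0.07 (adjusted p = 0.0172) without BXD56. Elovl5, which lengthens polyunsaturated chains, lay between 8.97 and 9.74 on CD with a median of 9.33, and between 9.098 and 9.997 on HFD with a median of 9.50. Overlap was broad, and BXD56 had the lowest HFD value. The difference was 0.16 ± 0.05 (adjusted p = 0.00679), and 0.18 ± 0.05 (adjusted p = 0.00238) without BXD56, with 26 of 37 strains higher on HFD. Per strain the Elovl6 difference lay below that of Elovl5 by 0.40 units (95% interval -0.604 to -0.195), and it was the higher of the pair in 6 of 37 strains. The sign-flip test gave p = 5e-05, or 0.00015 after adjustment over the 3 pairs, and without BXD56 the contrast was -0.34 (adjusted p = 0.00021).

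The desaturases were higher on HFD in most strains, with a wide spread, and neither passed in the fit over all 79 arrays. Scd1 lay between 11.83 and 14.32 on CD with a median of 12.84, and between 11.86 and 13.83 on HFD with a median of 13.31. Scd2 lay between 8.89 and 10.90 on CD with a median of 9.57, and between 9.26 and 11.11 on HFD with a median of 9.92. Both genes had lower medians on CD and ranges that overlapped almost fully. The difference was 0.28 ± 0.12 for Scd1 (adjusted p = 0.0606) and 0.25 ± 0.11 for Scd2 (adjusted p = 0.0736). With each array centred on its median Scd1 passed, at 0.295 (adjusted p = 0.0448). HFD was the higher in 25 of 37 strains for Scd1 and in 29 for Scd2. Without BXD56, Scd1 passed at 0.30 ± 0.12 (adjusted p = 0.0358) and Scd2 did not at 0.26 ± 0.11 (adjusted p = 0.0533). When each strain was set against itself, with strain as a block over 37 strains, Scd2 was called as well, at 0.24 (adjusted p = 0.0109), which made 2 members higher and 2 lower beside 20.7% and 20.0% of all probesets. Without BXD56 and with the block, 6 members were called, Scd1, Scd2, Elovl5 and Acly as higher and Acaca and Elovl6 as lower, beside 20.6% and 20.2% of all probesets. A difference between the responses of Scd1 and Scd2 was not detected. The mean contrast was 0.01 units (95% interval -0.246 to 0.273, adjusted p = 0.917), and the interval holds differences as large as the mean Scd1 response of 0.26.

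Srebf1, the regulator, lay between 9.20 and 10.48 on CD with a median of 9.84, and between 9.16 and 10.34 on HFD with a median of 9.82. The groups overlapped almost fully, and BXD44 was the lowest and BXD87 the highest strain on both diets. The difference was -0.06 ± 0.05 (adjusted p = 0.432; -0.07 without BXD56), and 14 of 37 strains were higher on HFD. These arrays measure the transcript and not the cleaved, active protein.

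**Figure D2:**
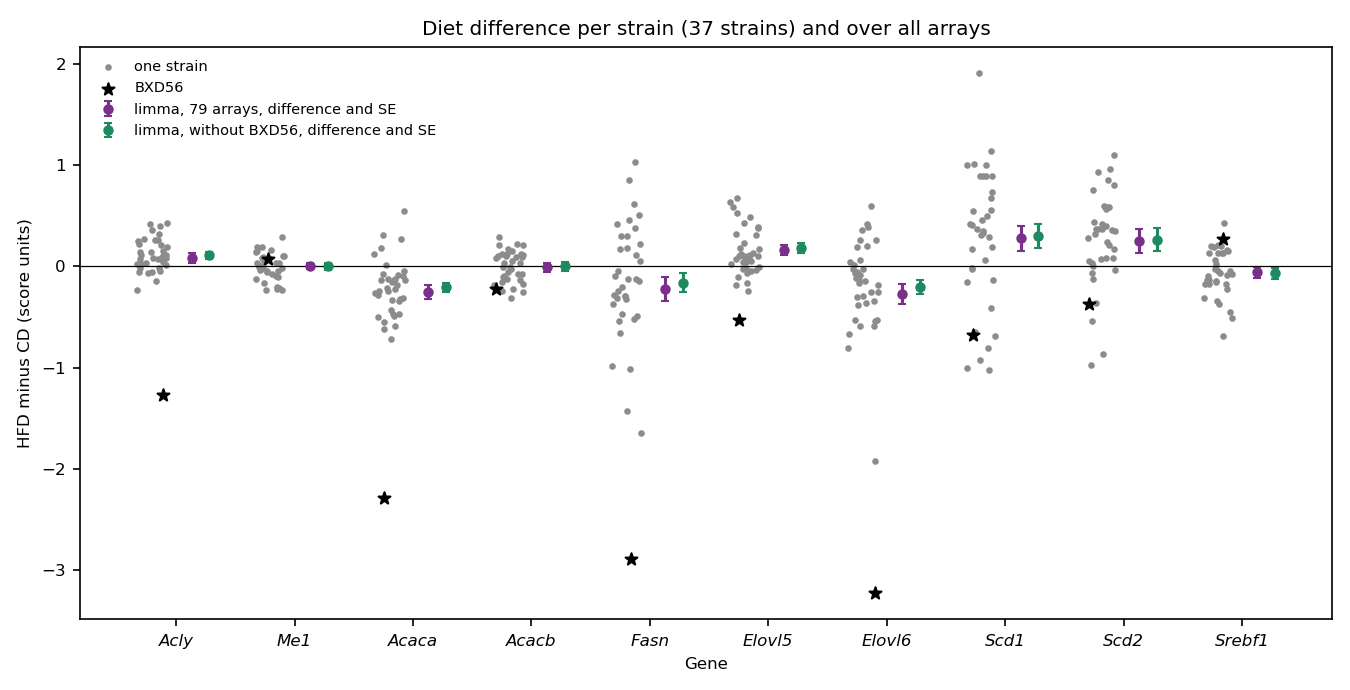
HFD minus CD in score units for each of 37 strains (grey points, star BXD56), with the limma difference and its SE over 79 arrays (purple) and without BXD56 (green). The estimates are below 0 for Acaca (-0.25) and Elovl6 (-0.27) and above 0 for Elovl5 (0.16), and the strains spread to both sides of 0 for every member.

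Adipocyte markers moved with diet. Of the 13 markers 8 were higher on HFD and 1, Cfd, was lower, beside 18.9% and 19.3% of all probesets. Lep was up by 1.58, Cidec by 0.75, Slc7a10 by 0.55, Adipoq by 0.54 and Plin1 by 0.37 units, and Cfd was at -0.61. Without BXD56, 10 markers were higher, beside 19.0% of all probesets. Adipocyte number and RNA per adipocyte cannot be told apart in bulk muscle. With the mean of the marker scores as a further term, 0 members were higher, where 15.2% of all probesets were. At a given marker level 3 members were lower, where 15.8% of all probesets were. These were Fasn at -0.55 ± 0.11 (adjusted p = 7.18e-05), Acaca at -0.43 ± 0.07 (adjusted p = 1.73e-06) and Elovl6 at -0.48 ± 0.10 (adjusted p = 0.000172). None of the other members had an unadjusted p below 0.05 in limma. In that fit the Scd1 estimate turned to -0.14 ± 0.10 (adjusted p = 0.275) and Elovl5 was 0.10 ± 0.06 (adjusted p = 0.161). Without BXD56 the same 3 members were called lower, with Fasn at -0.40 ± 0.10 (adjusted p = 0.00134), where 14.6% of all probesets were called higher and 15.5% lower. Of other cell types, in the fit without that term, 4 of 4 macrophage and 3 of 4 endothelial markers were higher on HFD. So were 1 of 12 muscle and 2 of 4 Schwann cell markers, while 1 Schwann marker was lower. Of 3 liver markers 0 were called (0 at an unadjusted p below 0.05). Beside these counts stand the 18.9% and 19.3% of all probesets given above. Without BXD56, 3 of the macrophage and 2 of the muscle markers were higher. With the adipocyte term these counts were 2 and 2, and with the strain block 2 Schwann markers were lower.

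The genes around the pathway gave mixed counts, to be read against the 18.9% of all probesets called higher and the 19.3% called lower. Of 17 regulators, 3 were higher on HFD (Insig1, which retains SREBP in the endoplasmic reticulum, at 0.15, Nr1h3, the liver X receptor alpha, at 0.12, and the AMP kinase subunit Prkaa1 at 0.13) and 2 were lower (Mid1ip1, a partner of acetyl-CoA carboxylase, at -0.10, and Prkaa2 at -0.08). The list's median was 0.02. Of 10 supply genes, 3 were higher (G6pdx at 0.38 and Pgd at 0.10, which make NADPH, and Slc25a1, the citrate carrier, at 0.25) and 2 were lower (Pcx at -0.16 and Pklr at -0.15). Their median was 0.02. Of 16 other elongation and desaturation genes, 2 were higher (Fads3 at 0.54 and Hacd2, which the table lists as Ptplb, at 0.36) and 5 lower, including Elovl2 at -0.40 and Elovl7 at -0.39, which lie below the array mean of 8.0. Their median was 0.02. Of 9 glycerolipid genes, 3 were higher (Agpat2 at 0.65, Dgat2 at 0.36 and Dgat1 at 0.11) and 0 lower, with a median of 0.04. At an unadjusted p below 0.05 a single glycerolipid gene was lower, Lpin2 at -0.09. Mlxipl, the carbohydrate response factor, differed by 0.02 (adjusted p = 0.692). The counts of these 4 lists were the same without BXD56. With the adipocyte term, 1 regulator was higher and 1 lower, 1 supply gene higher and 3 lower, 1 elongation or desaturation gene higher and 6 lower, and 2 glycerolipid genes higher and 1 lower, where 15.2% of all probesets were higher and 15.8% lower. With strain as a block, 4 regulators and 4 supply genes were higher and 1 glycerolipid gene was lower, the other counts being equal, beside the 20.7% and 20.0% given above. Without BXD63, 2 regulators were higher, and 4 glycerolipid genes were higher and 1 lower, beside 19.8% of all probesets in each direction.

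The HFD minus CD difference varied widely among strains. The per-strain difference of Scd1 ran from -1.02 in BXD49 to 1.91 in BXD79, with a median of 0.35. That of Fasn ran from -2.89 in BXD56 and -1.65 in BXD97 to 0.86 in DBA/2J and 1.04 in BXD63, with a median of -0.14. That of Elovl6 ran from -3.23 in BXD56 and -1.92 in BXD97 to 0.60 in BXD63. A few strains held the extremes of several enzymes at once. BXD56 had the lowest difference for Fasn, Acaca, Elovl6, Elovl5 and Acly, BXD63 the highest for Fasn, Elovl6 and Scd2, and BXD79 the highest for Scd1, Acaca and Acly. On CD, BXD79 had the lowest Scd1 of all strains at 11.83, while on HFD it stood at 13.74 and had the highest Acaca, Elovl5 and Acly. Its adipocyte marker mean moved from 9.32 to 10.43 between these arrays. The SD of the per-strain difference was 0.13 units for Me1 and 0.16 for Acacb, against 0.68 for Scd1 and 0.57 for Fasn without BXD56. With 1 array per strain and diet, a strain's own response could not be tested.

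The medians of the called members had the same sign within batches. For Acaca the median per-strain difference was -0.23 among 12 strains measured on both diets in batch 1, -0.14 among 17 in batch 2 and -0.28 among the 8 measured once in each. The corresponding medians were -0.21, -0.02 and -0.16 for Elovl6 and 0.11, 0.11 and 0.06 for Elovl5. Within batches the arrays were fewer, and limma called Acaca alone in batch 1, as lower, where 5.82% of all probesets were higher and 6.81% lower. In batch 2 it called 0 members, where 12.2% of all probesets were called in each direction and Acaca and Elovl5 had an unadjusted p below 0.05. The limma differences in batch 2 were -0.28 ± 0.12 for Acaca, -0.31 ± 0.17 for Elovl6 and 0.15 ± 0.07 for Elovl5.

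Members did not vary among strains as a single unit. On CD without BXD56, 11 of the 45 pairs of members had r of at least 0.5 and the median was 0.23, after batch means were removed. On HFD with all arrays, 10 pairs did and the median was 0.19, or 9 pairs and 0.22 without BXD56. These correlations share arrays and are given as a description. Acly, Acaca, Fasn, Elovl6 and Scd1 formed a group on CD, with r between 0.52 and 0.84 for the 10 pairs among them. Scd2 went with Srebf1, with r = 0.64 on CD and 0.66 on HFD. Me1 and Acacb had no r of 0.5 or more with another member on either diet. Me1 and Srebf1 had r = 0.37 on CD without BXD56 and 0.41 on HFD. On CD without BXD56 r was -0.44 for Me1 and Elovl6 (rho = -0.28) and -0.34 for Me1 and Acaca (rho = -0.24), against -0.23 and -0.14 with BXD56. On HFD r was -0.50 for Me1 and Elovl5, -0.48 for Acacb and Scd2 and -0.45 for Acacb and Fasn. With BXD56 included, 13 pairs on CD had r of at least 0.5 and the highest, Elovl6 with Acly, was 0.94 in place of 0.84.

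**Figure D3:**
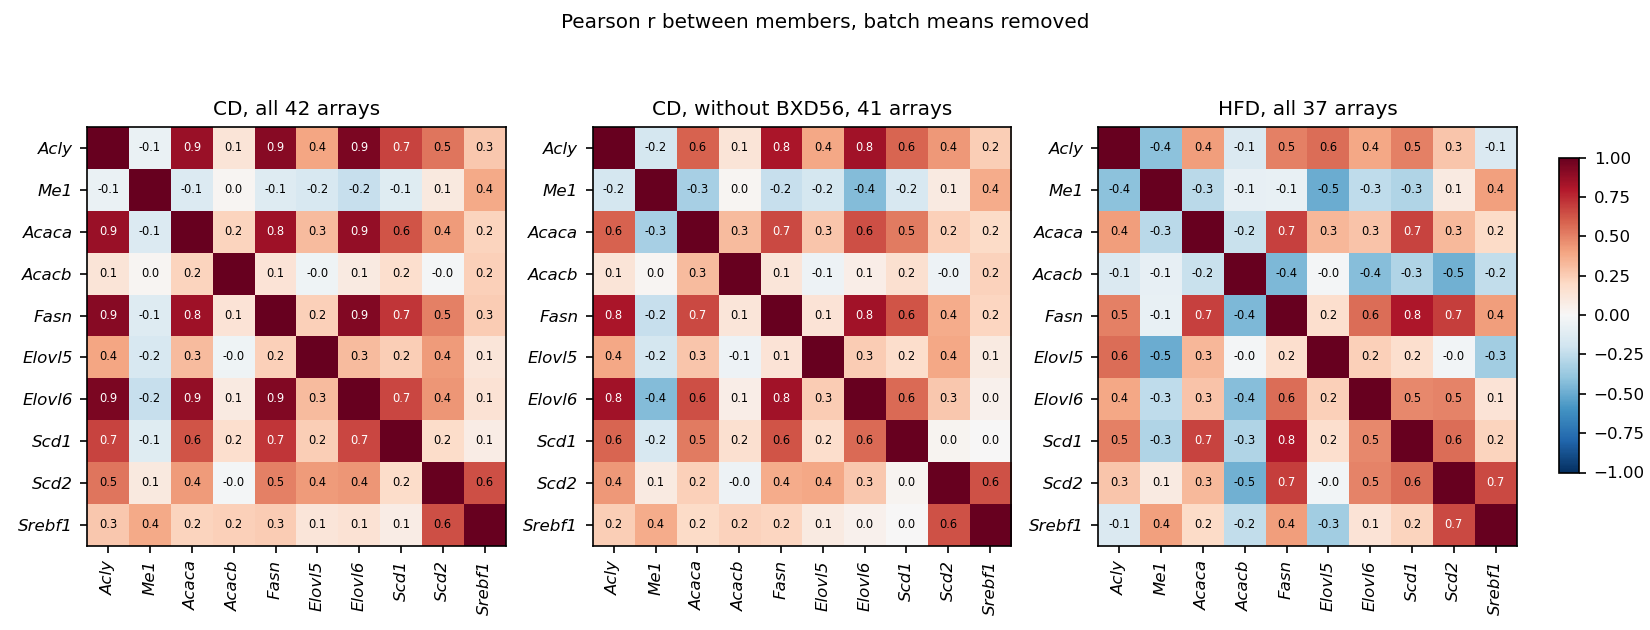
Pearson r between members over arrays after batch means were removed, for CD with all 42 arrays, CD without BXD56 (41 arrays) and HFD (37 arrays); red is positive and blue negative, and the numbers are r. Acly, Acaca, Fasn, Elovl6 and Scd1 are red together on CD in both panels, Scd2 and Srebf1 pair on both diets (0.64 and 0.66), and Me1 and Acacb have no r of 0.5 or more with another member.

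BXD97 and BXD101 came next to BXD56 on CD for Fasn, Elovl6 and Acly. Fasn was 11.13 in BXD97 and 10.81 in BXD101, and Elovl6 in the same strains was 9.70 and 9.40, against at most 8.61 on any HFD array. Acly was 9.25 and 9.26 in these strains. Their Srebf1 was 9.79 and 9.81, near the CD median of 9.84. Their adipocyte marker means were 9.46, above the median of 9.27, and 9.19, below it. On HFD, BXD97 had Fasn at 9.48 and Elovl6 at 7.78, while its Acly of 9.11 was exceeded by BXD79 alone (9.15). BXD101 had no HFD array.

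Fasn was then used as the axis, and the other 9 members were tested for a slope on it within each diet by limma with batch as a term. Because a mixture fit split the CD values of Fasn, Acaca and Acly into BXD56 and the rest, and those of Elovl6 into 3 arrays and the rest, CD correlations are given without BXD56. On CD, 4 of 9 members rose with Fasn (Acaca, Elovl6, Scd1 and Acly), where 0.121% of all probesets did with BXD56 and 0.0169% without it. Without BXD56 only 6 probesets of 35555 rose with Fasn at an adjusted p below 0.05. They were these 4 members, Tkt, the transketolase of the pentose phosphate pathway (slope 0.29 ± 0.04, adjusted p = 6.18e-05), and Slc25a1, the citrate carrier (slope 0.37 ± 0.06, adjusted p = 0.00513). A further 2 probesets fell.

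Acly followed Fasn with r = 0.81 and rho = 0.67 over 41 CD strains (permutation p = 1e-05 for each, the smallest that 100000 draws allow; limma adjusted p = 5.83e-06). Leaving out BXD97 and BXD101 gave r = 0.66, and the batches gave 0.65 and 0.85. Acaca followed Fasn with r = 0.66 and rho = 0.57 (permutation p = 2e-05 and 0.00021; adjusted p = 0.0199). Without BXD97 and BXD101 its r was 0.47, and the batches gave 0.27 and 0.79. Its other probeset had r = 0.55 and was not called (adjusted p = 0.306). Scd1 had r = 0.63 and rho = 0.56 (permutation p = 2e-05 and 0.0002; adjusted p = 0.0315), or 0.55 without BXD97 and BXD101, and 0.37 and 0.73 within the batches. For Elovl6 the mixture fit also set BXD97 and BXD101 apart, and over the other 39 strains r was 0.71. Its rho over 41 strains was 0.71 (permutation p = 1e-05), and the batches gave r of 0.59 and 0.89. Its slope on Fasn without BXD56 was 0.64 ± 0.07 (adjusted p = 1.12e-07). Leaving out BXD56 and BXD97 together, limma called Elovl6 and Acly alone of the members, where 0.0141% of all probesets rose. The slope of Scd1 was then 0.629 (adjusted p = 0.16) against 0.624 without BXD56 only, and that of Acaca 0.270 (adjusted p = 0.186) against 0.304. In batch 2 by itself, with BXD56 among its arrays, limma called the same 4 members as with all arrays, where 0.0956% of all probesets rose, and in batch 1 by itself it called 0 members and 0 probesets in all. There 5 members had an unadjusted p below 0.05 (Acacb, Scd2, Elovl6, Srebf1 and Acly), and Acaca (p = 0.274) and Scd1 (p = 0.103) did not.

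On HFD, 3 of 9 members rose with Fasn (Acaca, Scd1 and Scd2), where 0.166% of all probesets did and 0.143% without BXD56. Scd1 had r = 0.81 and rho = 0.85 over 37 strains (permutation p = 1e-05 for both; adjusted p = 6.69e-06), and 0.79 and 0.83 within the batches. Scd2 had r = 0.69 and rho = 0.60 (permutation p = 1e-05 and 0.00013), 0.68 without DBA/2J and BXD49, and 0.73 and 0.66 within the batches. Acaca had r = 0.68 and rho = 0.64 (permutation p = 2e-05 and 9e-05), 0.58 without those strains, when it was no longer called (slope 0.31, adjusted p = 0.0985, where 0.177% of all probesets rose), and 0.66 and 0.72 within the batches. The other Acaca probeset had r = 0.38 and was not called. In batch 1 alone limma called 0 members and 0 probesets in all, with 6 members at an unadjusted p below 0.05, and in batch 2 alone it called Scd1, where 0.0534% of all probesets rose. Elovl6 (r = 0.56, rho = 0.51, permutation p = 0.00036 and 0.00157) and Acly (r = 0.51, rho = 0.49, permutation p = 0.00147 and 0.00215) were not called over all probesets, with adjusted p of 0.103 and 0.43 without BXD56. Srebf1 had r = 0.42 and rho = 0.38 (permutation p = 0.00968 and 0.0223) and was not called (adjusted p = 0.646 without BXD56). Acacb had r = -0.45 and rho = -0.39 (permutation p = 0.00534 and 0.0165; adjusted p = 0.515 without BXD56). The difference between the diets in these slopes was not tested.

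**Figure D4:**
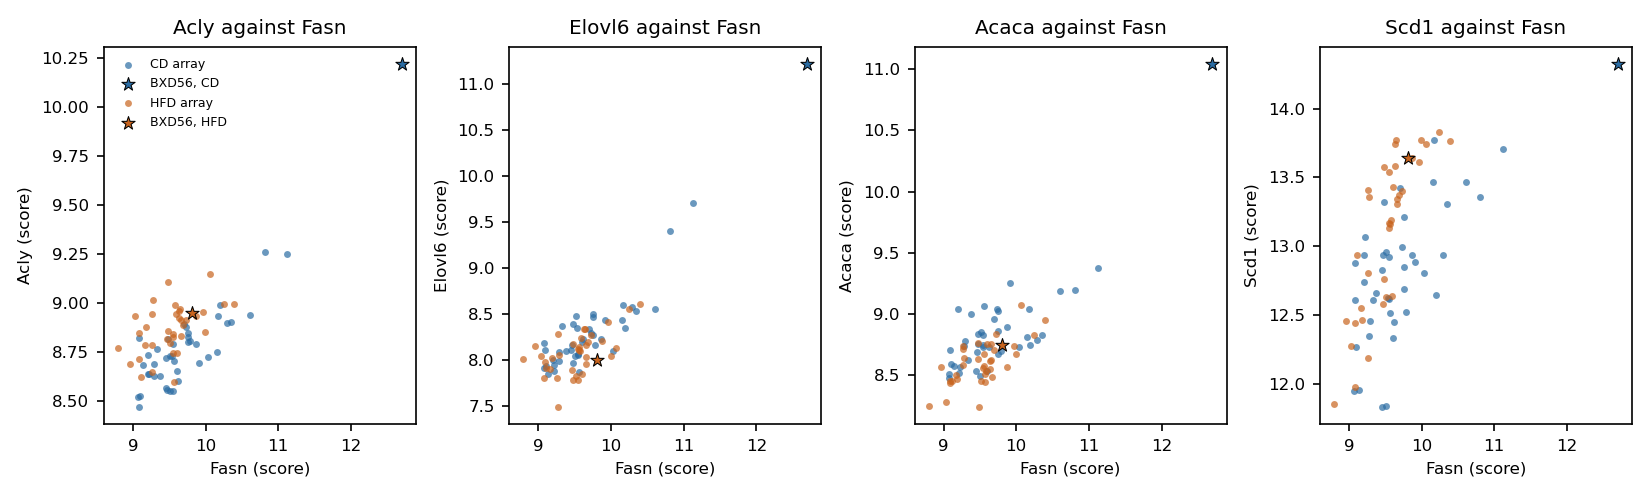
Scores of Acly, Elovl6, Acaca and Scd1 (y axes) against Fasn (x axis) on CD (blue) and HFD (orange) arrays, with BXD56 as a star. The CD star lies at Fasn 12.70, followed by BXD97 at 11.13 and BXD101 at 10.81, and the HFD arrays end at 10.40.

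Adipocyte markers went with several members on HFD, and on CD the calls were lost without BXD56. On HFD, 4 of 10 members rose with the marker mean (Fasn, Acaca, Scd1 and Acly), where 1.0% of all probesets did and 1.13% without BXD56. Scd1 had r = 0.82 and rho = 0.81 with the marker mean (permutation p = 1e-05 for both; adjusted p = 1.97e-07), and 0.84 and 0.80 within the batches. Fasn had r = 0.73 and rho = 0.73 (permutation p = 1e-05 for both; adjusted p = 0.000104), and 0.68 and 0.77 within the batches. Acly had r = 0.63 and rho = 0.61 (permutation p = 2e-05 and 0.0001), and Acaca had r = 0.60 and rho = 0.55 (permutation p = 9e-05 and 0.00049). Without BXD79 and BXD51 their r was 0.55 and 0.50 and neither was called, where 0.366% of all probesets rose and Fasn and Scd1 did. In batch 1 alone limma called Scd1 (0.169% of all probesets) and in batch 2 alone Fasn and Scd1 (0.304%). Srebf1 did not go with the markers (r = 0.03, rho = -0.04, permutation p = 0.862 and 0.833). On CD, 5 members were called with all arrays, where 0.217% of probesets were, and without BXD56 limma called 0, where 0.129% of probesets were and 1 member, Scd1, had an unadjusted p below 0.05. Its r there was 0.50 and its rho 0.46 (permutation p = 0.00095 and 0.00262; adjusted p = 0.136). Fasn had r = 0.26 and rho = 0.32 on CD without BXD56 (permutation p = 0.0985 and 0.0432). In batch 2 alone, which holds BXD56, Fasn, Scd1 and Acly were called on CD, where 0.172% of probesets rose, and without BXD56 and BXD66 0 members were, where 0.0985% rose and Scd1 had an unadjusted p below 0.05. Without BXD63, Fasn lost its call on CD, with a limma adjusted p of 0.0504 against 0.0405 with all arrays.

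With the marker mean as a further term beside Fasn, the members called with Fasn on CD without BXD56 were Elovl6 at 0.63 ± 0.07 (adjusted p = 7.67e-07) and Acly at 0.29 ± 0.04 (adjusted p = 2.81e-05), among 4 probesets called in all (0.0113%). The slopes of Acaca and Scd1 lost the call, at 0.297 against 0.304 before the term for Acaca (adjusted p = 0.0712) and at 0.52 against 0.62 for Scd1 (adjusted p = 0.194). On HFD the member called was Scd2, at 1.31 ± 0.24 units per unit of Fasn (adjusted p = 0.0383), among 3 probesets called in all (0.00844%, with BXD56 or without). Scd1 lost the call in that fit, at 0.73 ± 0.19 against 1.31 before the term (adjusted p = 0.182), as did Acaca, at 0.263 against 0.348 (adjusted p = 0.476). In limma 6 members then had an unadjusted p below 0.05 (Acaca, Acacb, Scd1, Scd2, Elovl6 and Srebf1). Before the term 7 did, the same ones and Acly.

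Among genes outside the 10 members, those most like Fasn over all 79 arrays, after the means of each diet and batch were removed, were Tkt (r = 0.83), Slc25a1 (0.80), Pygl, a glycogen phosphorylase (0.73), Cdo1, cysteine dioxygenase (0.69) and Slc36a2, an amino acid transporter (0.68). Without BXD56 they were Tkt (0.71), Slc25a1 (0.67), Cdo1 (0.64), Slc25a10 (0.54) and Slc36a2 (0.54). Tkt was also the gene most like Acly (0.81), Elovl6 (0.78) and Acaca (0.75). Without BXD56 it stayed first for Elovl6 (0.59), while Fads1, a fatty acid desaturase, came first for Acly (0.68) and Pck1 for Acaca (0.51). For Scd1 it was Lgals12, a galectin of adipocytes (0.75, and 0.71 without BXD56). The other leaders were Myo18b for Acacb (0.75), Styx for Me1 (0.75), Rod1 for Elovl5 (0.84), Ehbp1l1 for Srebf1 (0.68) and Ttll1 for Scd2 (0.69). Without BXD56, Alkbh8 came first for Srebf1 (0.69) and Tmx2 for Scd2 (0.69), while Myo18b, Styx and Rod1 stayed first. All values are descriptions over arrays that share the members' own measurements.

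The order of strains was then compared across diets in the 37 paired strains, which asks which members keep a strain's level when the diet changes. Of 10 members 4 had r of at least 0.5 between diets, namely Acacb, Scd2, Me1 and Srebf1, where 7.77% of all probesets did and 7.94% without BXD56. The same 4 exceeded 0.5 without BXD56. Acacb had r = 0.70 and rho = 0.68 (permutation p = 1e-05 and 3e-05; adjusted over all probesets 7.32e-05), 0.64 after the 2 strains with the most extreme CD values were left out, and 0.89 and 0.57 within the batches. BXD63 was lowest on both diets, at 11.20 and 11.06. Me1 had r = 0.61 and rho = 0.53 (permutation p = 6e-05 and 0.00078; adjusted p = 0.00151), 0.51 after the same step, and 0.59 and 0.73 within the batches. Its other probeset had r = 0.75. Among the 8 strains measured once in each batch, r was -0.11 for Me1 and 0.61 for Acacb.

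Scd2 had r = 0.61 and rho = 0.64 (permutation p = 7e-05 and 6e-05; adjusted p = 0.0017), 0.59 after the 2 most extreme strains were left out, and 0.84 and 0.58 within the batches. It was high on both diets in BXD87 (10.65 on CD and 11.02 on HFD), BXD56 (10.90 and 10.53) and BXD45 (10.88 and 10.34). Srebf1 had r = 0.56 and rho = 0.36 (permutation p = 0.00039 and 0.0283; adjusted p = 0.00591). Leaving out BXD44 and BXD87 brought its r to 0.34, and among the 8 strains measured once in each batch it was -0.46, while within the batches it was 0.83 and 0.56. BXD44 and BXD87 have their arrays in batch 1, so the batch 2 value does not include them.

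The other members had lower cross-diet correlations. Without BXD56, which split the values of Fasn, Acaca, Elovl6 and Acly, the cross-diet r was 0.03 for Fasn (rho = 0.12, permutation p = 0.869 and 0.47), 0.06 for Acaca (rho = 0.11, p = 0.715 and 0.522 by permutation) and -0.22 for Elovl6 (rho = -0.14, permutation p = 0.185 and 0.401). It was 0.16 for Scd1 (rho = 0.17, permutation p = 0.366 and 0.331), 0.39 for Acly (rho = 0.28, permutation p = 0.0188 and 0.0952) and 0.42 for Elovl5 (rho = 0.34, permutation p = 0.0108 and 0.0418). Among the 8 strains measured once in each batch r was 0.72 for Acaca, -0.76 for Fasn, -0.73 for Elovl6, -0.35 for Scd1, 0.27 for Elovl5 and 0.0062 for Acly. None of these 6 members passed over all probesets, the smallest adjusted p being 0.0839 for Elovl5. The median r over all probesets without BXD56 was 0.145. The difference between the correlations of Scd1 and Scd2 was not tested.

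**Figure D5:**
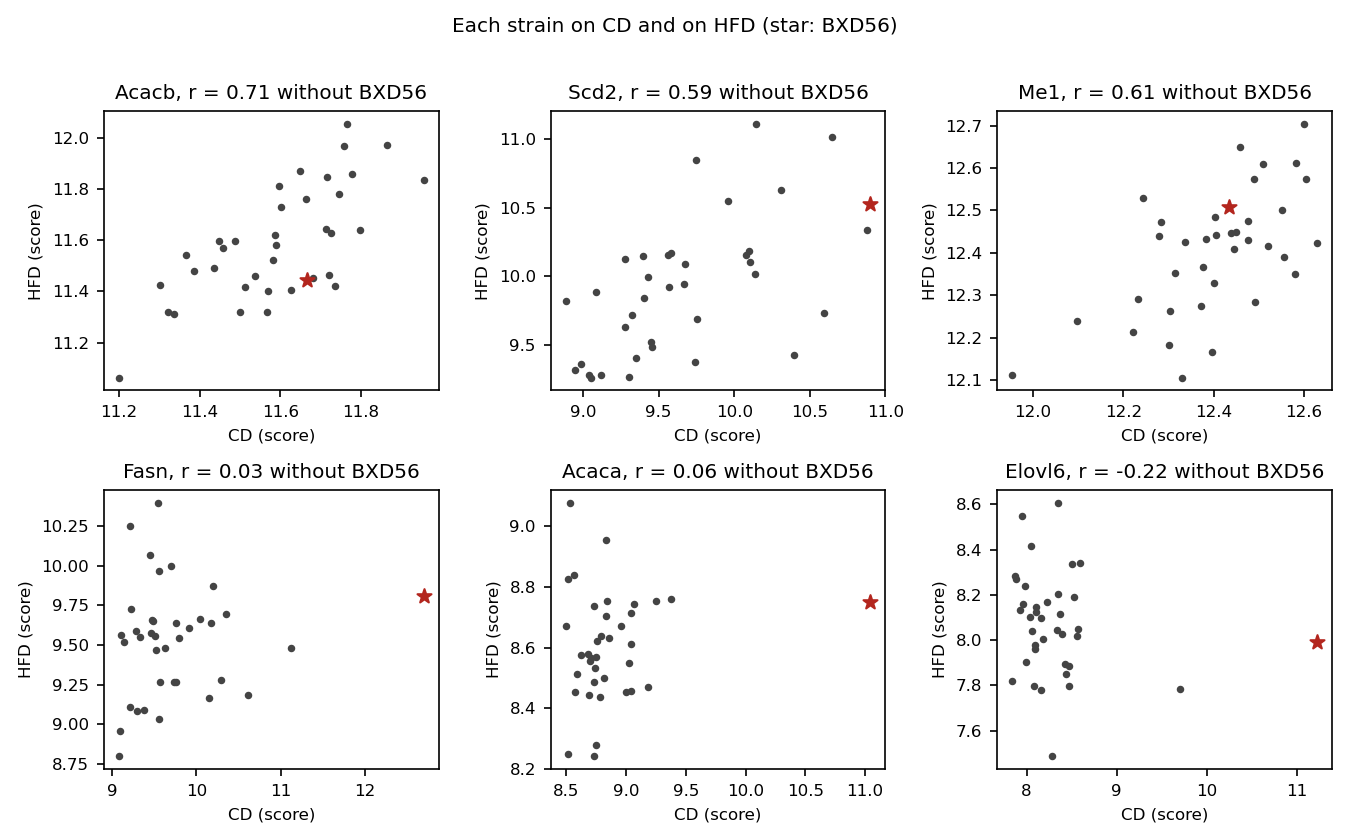
Score of each strain on HFD (y axis) against CD (x axis) for 6 members, with BXD56 as a red star and r without BXD56 in each title. Acacb (0.71), Scd2 (0.59) and Me1 (0.61) rise along the diagonal, and Fasn (0.03), Acaca (0.06) and Elovl6 (-0.22) do not.

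The parents gave no called difference on the representative probesets. The fit had a coefficient for every strain beside diet and batch, and called 0 of 10 members where it called 1.26% of all probesets. A single member, Me1, had an unadjusted p below 0.05. Me1 was 12.58 on CD and 12.35 on HFD in C57BL/6J, and 12.22 and 12.21 in DBA/2J, so C57BL/6J was higher by 0.25 ± 0.10 (adjusted p = 0.348). The other Me1 probeset, whose neighbours by number lie on chromosome 9 as Me1 does in 8 of 10 cases, was higher in C57BL/6J by 0.34 ± 0.08 (adjusted p = 0.0268). With the 4 parental arrays fitted alone this difference was again 0.34, with an SE of 0.13, and the call was lost (adjusted p = 0.594). The first Me1 probeset had 1 of 10 such neighbours, and the pair had r = 0.94 with BXD56 and without it. Fasn was 10.04 on CD and 9.66 on HFD in C57BL/6J, and 9.54 and 10.40 in DBA/2J, the highest HFD value of any strain. DBA/2J was also highest on HFD for Elovl6, at 8.61. With 1 array per parent and diet the opposite movement of Fasn in the parents could not be tested.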

How the data were processed

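The authors hybridised pooled quadriceps RNA to arrays and deposited a score per probeset, which per the labels was made with Affymetrix Expression Console; its summarization, log base and batch handling are not given in the sources used here. All 79 value columns were used, including a chow column headed BXD92, whose nearest sample title is BXD92a. Tests planned for log2 values were run on the score, which behaves like a logarithm. Precision is limited by the number of arrays. Members and lists were chosen with earlier results of these data known.

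limma 3.58.1 (R 4.3.3) fitted diet and batch over all 79 arrays, slopes on Fasn or on the adipocyte marker mean within diet, and parental coefficients, with Benjamini-Hochberg adjustment over all probesets and calls below 0.05. The models were checked on simulated data. In the diet fits the adipocyte marker mean was the plain mean of the scores. For slopes and correlations each marker was first centred and divided by its SD within diet. Correlations were taken after batch means were removed, with two-sided permutation tests of 100000 draws and a threshold of 0.5 for the cross-diet count. A group was treated as split where a fit of 2 Gaussians had a BIC lower by 10 or more than that of 1, with Ashman's D above 2. Motifs were searched in RefSeq GRCm38.p6 promoters, and gene chromosomes came from the RefSeq table of the same assembly, which names the genes only; the deposited table named no build. Figures were drawn with matplotlib 3.10.9 in Python 3.11.15, mixtures fitted with scikit-learn 1.9.0, and the rest computed with scipy 1.17.1, pandas 2.3.3 and numpy 2.4.6.

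The text names the 10 members with all probesets, at most 4 called genes per list by size of difference, Adipoq and Plin1, and the genes most like each member. Lists covered regulators, supply, elongation, glycerolipid synthesis, and markers of adipocytes, muscle, macrophages, endothelium, Schwann cells and liver, of which Serpina1a was not among the symbols. The pairing of arrays comes from the strain named in the labels: deviations of a strain's arrays correlated by 0.192 in the median, and above 0.1 in 33 of 37 strains. Alternatives covered the batch term, each batch, strains included, the strain block, other tests, normalizations, probesets and the adipocyte term. Leaving out BXD56, or BXD51 and BXD66, and the combinations with BXD56 were chosen after the data were seen. So were Fasn's promoter, Mlxipl, Thrsp, Tkt, Pgd, Prkaa2, Lpin2, the adipocyte markers Pck1, Cidea and Retn, the genes of other members without BXD56 and the strains named.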

Additional observations from a re-analysis of the deposited data

How the results depend on the processing

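Of 215 values of single members under 18 alternatives of the diet comparison, 187 kept their direction and their side of the threshold, 9 lost the call, 9 gained it and 10 changed sign. The diet calls numbered 3 with all arrays, 1 in batch 1 alone and 0 in batch 2 alone, where 2 had an unadjusted p below 0.05 in limma. Of all probesets, 18.9% were higher and 19.3% lower with all arrays, 5.82% and 6.81% in batch 1, and 12.2% each in batch 2. The calls numbered 5 without BXD56, and 4 with arrays centred on their medians, where Scd1 was added at 0.295. With strain as a block in the paired strains they numbered 4, where Scd2 was added at 0.236, and 6 without BXD56 with that block. In these last fits the shares of all probesets lay between 16.2% and 23.1% in each direction. The sign changes concerned small or uncalled values. Me1 was -0.0147 in batch 1, -0.0172 for the mean of its probesets and -0.0394 for the other probeset, which itself was 0.0015 without BXD56 and with the adipocyte term. Acacb was 0.00189 with the adipocyte term, 0.00979 with that term and without BXD56, and 0.011 with arrays centred on their medians. With the adipocyte term Scd1 was -0.14 (-0.122 without BXD56) and Acly -0.0442.

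Calls with Fasn on CD numbered 4, and 0 in batch 1, 2 without BXD56 and BXD97, and 2 with the adipocyte term and without BXD56. On HFD they numbered 3, and 0 in batch 1, 1 in batch 2 and 1 with the adipocyte term, with BXD56 or without. Calls with the adipocyte markers on CD numbered 5, and 0 without BXD56, 0 without BXD56 and BXD66, 0 in batch 1 and 3 in batch 2. In that batch 1 fit, 1 of 35543 probesets was called. On HFD the calls with these markers numbered 4, and 1 in batch 1, 2 in batch 2 and 2 without BXD79 and BXD51. The other shares of all probesets for the Fasn and marker counts stand with the comparisons above. Between the parents the other probesets of Acaca and Me1 gave 1 call. The contrast of Scd1 with Scd2 was -0.0234 in the strains of batch 2 and -0.01 as a median, and that of Acaca with Acacb in batch 2 was -0.254 and no longer passed (adjusted p = 0.0849). The cause of these changes was not tested, other than that single batches hold fewer arrays.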
